A study of Mus musculus with 6 samples.

Results

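The G2/M and mitosis genes are a set of 35 mouse genes, chosen by symbol, whose products carry a cell from the end of G2 through chromosome segregation and cytokinesis. Of these, 33 are listed among the 12134 genes of the expression table, and Plk1 and Cdc25c, which are not listed there, were not analysed. They were measured by RNA-seq in 6 libraries of AB22, a mouse line of malignant mesothelioma, the cancer of the mesothelial lining. The 3 shHMGB1 libraries (replicates A, B and C) came from cells with a hairpin against Hmgb1, the gene of an abundant DNA-bending chromatin protein. The 3 shCTRL libraries (replicates A, B and C) came from cells with a control hairpin. Both populations carried a doxycycline-inducible pTRIPZ lentiviral vector, delivered at a multiplicity of infection of 20, were selected with puromycin at 4 µg/mL, and grew in 5% oxygen with 1 µM doxycycline for 7 to 10 days. All 6 RNA samples came from cells synchronized in G1, and none was labelled as irradiated. The labels call the samples biological replicates without saying whether infections were separate, and the p-values rest on the spread among these libraries alone. Values of a group's 3 libraries are given in the order A, B, C.

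Entry into mitosis is driven by CDK1 bound to cyclin A or cyclin B, and exit follows when the anaphase-promoting complex, helped by CDC20 and the ubiquitin-conjugating enzyme UBE2C, marks securin and the cyclins for destruction. Between these events the spindle is built by kinesin motors and microtubule proteins, kinetochores attach chromosomes to it, the checkpoint kinases delay anaphase until attachment is complete, and the central spindle directs the cleavage furrow. Transcripts of these genes are low in G1 and accumulate in G2 in proliferating cells. Many of their promoters carry a cell cycle genes homology region (CHR), bound by the MuvB complexes that repress them in quiescence and G1 and activate them, together with MYBL2 and FOXM1, in G2. CCAAT boxes bound by NF-Y often lie nearby. The comparison asks how the transcripts of these genes stand in G1 cells after silencing of Hmgb1, before any irradiation.

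The promoters were read for these elements because the CHR and CCAAT box are known elements of promoters of this kind. RefSeq promoter windows on GRCm38.p6, from 250 bases before to 50 bases after each annotated start, were matched by symbol for 27 of the 33 genes. CHR letters were TTTGAA or its variant TTCGAA, and CCAAT box letters were CCAAT, each searched on both strands, so that the reverse complements also count. An E2F core match may overlap a CCAAT box match. A CHR match was present for 22 of the 27 genes (81.5%), against 16.2% of the 8847 genes of the expression table that have a window. From 100 bases before the start onward, a match was present for 21 of 27 (77.8%), against 6.64%. A CCAAT box was found in 21 of 27 (77.8%), against 43.7%, and at least 2 copies in 15 of 27 (55.6%), against 17.1%. Copies may overlap each other, as a pair in the Ube2c window does. Both elements in 1 window were found for 19 of 27 genes (70.4%), against 6.8%. The E2F core letters, which were TTCCCGC in one form, TTGGCGC in another, TTCGCGC as a further form and TTGCCGC as the last, on both strands, were found in 5 of 27 (18.5%), against 20.1%. Letters that match are a description and do not show that a protein binds there.

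The following 120 bases before the start are shown for 5 genes whose CHR letters fall before the start, and for Hmmr, the gene whose values ran against the others. Capitals mark CHR and CCAAT box letters on either strand. Cdk1 (chr10:69352913-69353032, minus strand) has 2 CHR matches, at positions -71 and -15 from the start, with CCAAT boxes on the reverse strand before each. Ube2c (chr2:164769809-164769928, plus strand) has 1 at -29, Cdc20 (chr4:118437344-118437463, minus strand) has 1 at -18, and Kif11 (chr19:37376262-37376381, plus strand) has 1 at -19. Top2a (chr11:99024190-99024309, minus strand) has 2 CHR matches in this stretch. Hmmr (chr11:40733438-40733557, minus strand) has 3 CCAAT boxes here, and its CHR letters begin at position 9 after the start.
Cdk1: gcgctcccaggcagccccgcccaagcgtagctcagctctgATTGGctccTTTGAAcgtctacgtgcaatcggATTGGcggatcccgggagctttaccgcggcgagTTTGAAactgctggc
Ube2c: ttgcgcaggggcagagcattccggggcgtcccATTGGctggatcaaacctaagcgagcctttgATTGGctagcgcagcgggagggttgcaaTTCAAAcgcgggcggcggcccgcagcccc
Cdc20: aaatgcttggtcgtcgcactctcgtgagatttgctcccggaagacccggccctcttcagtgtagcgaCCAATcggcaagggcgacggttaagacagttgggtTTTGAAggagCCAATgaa
Kif11: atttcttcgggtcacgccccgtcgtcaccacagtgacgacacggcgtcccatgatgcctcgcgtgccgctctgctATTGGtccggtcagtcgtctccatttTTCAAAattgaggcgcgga
Top2a: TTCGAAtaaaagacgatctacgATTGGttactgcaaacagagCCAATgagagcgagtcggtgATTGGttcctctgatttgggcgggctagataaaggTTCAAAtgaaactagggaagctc
Hmmr: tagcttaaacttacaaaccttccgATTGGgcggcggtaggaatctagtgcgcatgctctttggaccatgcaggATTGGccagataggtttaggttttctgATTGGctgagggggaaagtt

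**Figure D1:**
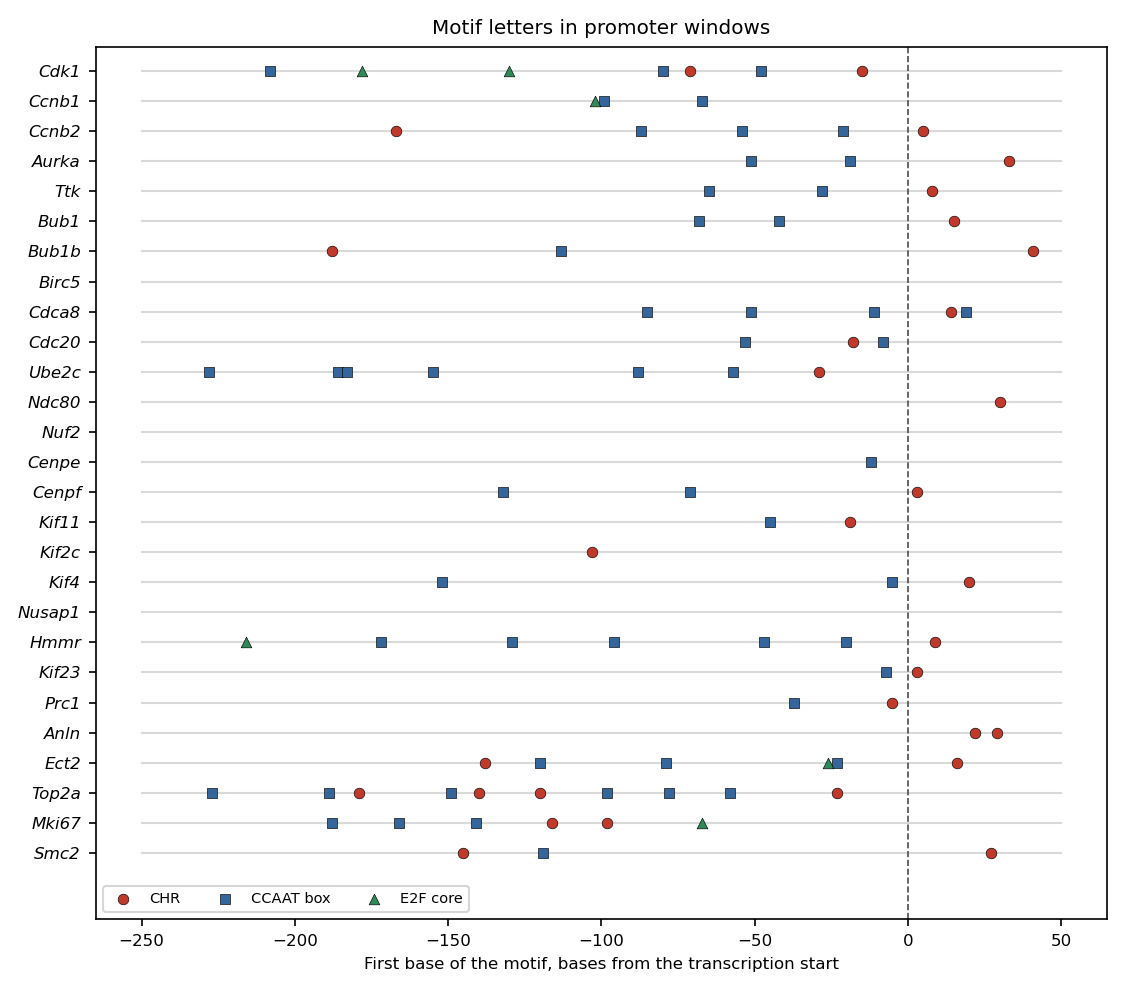
Places of CHR (circles), CCAAT box (squares) and E2F core (triangles) letters in the promoter windows of 27 genes, 1 row per gene and its first listed start, with the distance from the transcription start in bases on the horizontal axis. In 21 of the 27 genes a CHR match lies from 100 bases before the start onward.

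Depth and quality were as follows. Reads recovered from the steps of the deposited values came to 12869533 to 23429362 per library over the listed genes, and 1 read on a 2 kb gene is worth 0.0196 to 0.046 RPKM (reads per kilobase of gene, scaled to library size). Hmgb1 itself measured 5.59 ± 1.70 RPKM in shHMGB1 cells and 36.9 ± 7.43 RPKM in shCTRL cells (SD, n = 3 each), which leaves 15.1% of the shCTRL mean (log2 fold change -2.73 ± 0.26 SE, limma adjusted p = 0.0264, lower in 3 of 3 libraries). Since 10 pseudogenes are named after Hmgb1 and could share reads with it, its remaining level is uncertain. The call of Hmgb1 was lost when any of shHMGB1 replicate B and the 3 shCTRL replicates was left out, at adjusted p = 0.115 to 0.249. Mesothelial markers Msln, Bnc1 and Efemp1 were listed, 3 of 10, with a summed level of 387 to 514 RPKM in shHMGB1 cells and 503 to 581 RPKM in shCTRL cells, while Wt1, Upk3b and the keratins Krt8, Krt18 and Krt19 were not listed. Of 7 immune markers only Lyz2 was listed (2.31 to 2.71 RPKM in shHMGB1 cells, 1.97 to 2.56 in shCTRL cells), of 4 endothelial markers only Kdr (0.495 to 3.60 and 1.04 to 2.78 RPKM), and of 3 erythroid markers none. Of 5 fibroblast markers, 4 were listed, summing to 1050 to 2360 RPKM in shHMGB1 cells and 869 to 1520 RPKM in shCTRL cells. Ribosomal RNA transcripts took 0.198% to 3.89% of reads in the shHMGB1 libraries and 0.915% to 20.9% in the shCTRL libraries, and the part of these markers and of ribosomal RNA in the results was not tested.

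In these G1 cells most of the mitotic genes were weakly expressed in both groups. Anln (mean percentile 65.1 in shHMGB1 cells and 63.3 in shCTRL cells) and Smc4 (64.9 and 64.4) stood above the median listed gene. Their means over 6 libraries ran from 0.521 RPKM for Nuf2 to 13.9 RPKM for Anln and Smc4, while the G1 cyclin gene Ccnd1 measured 120 ± 21.1 RPKM in shHMGB1 cells and 96.2 ± 3.66 RPKM in shCTRL cells (SD, n = 3 each). The median mitotic gene stood at percentile 13.2, 25.9 and 10.9 of all listed genes in shHMGB1 cells, against 6.99, 13.3 and 6.58 in shCTRL cells. Each of the 33 genes had reads in every library, from 4 reads for Nuf2 in shCTRL replicate A to 1920 reads for Anln in shHMGB1 replicate B. An exact 95% counting interval is 1.09 to 10.2 around those 4 Nuf2 reads and 74.2 to 113 around its 92 reads in shHMGB1 replicate B. Such intervals cover counting error only.

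Of the 33 genes, 32 had a positive log2 fold change of shHMGB1 over shCTRL, with a median of 0.86, against 52.1% positive and a median of 0.02 over all 12134 genes. The authors' filter on genes is not known, so low genes may be listed only through libraries where they were high. This was not tested. None of the 33 passed the test, limma's moderated test on log2(RPKM + 0.1) with Benjamini-Hochberg adjustment over all genes at 0.05, where 3 of all genes (0.0247%) did, including Hmgb1. The smallest adjusted p among the 33 was 0.415. At an unadjusted p under 0.05 there were 11 of the 33, against 8.16% of all genes, of which 10 were higher (30.3%, against 4.01%) and 1 lower (against 4.15%). That count of 11 was 20 without shHMGB1 replicate A, 5 without shHMGB1 replicate B and 17 without shHMGB1 replicate C. It was 5 without shCTRL replicate A, 15 without shCTRL replicate B and 4 without shCTRL replicate C. The count over all genes, 990 with 6 libraries, was 2523, 466, 815, 853, 502 and 741 in the same fits. The count of the 33 was 23 after rescaling to equal sums (789 of all genes). With limma's array quality weights 27 of the 33 passed the adjusted threshold, against 7.9% of all genes, in a fit whose weight is 7.35 for shHMGB1 replicate B and 0.378 to 1.44 for the other libraries. Limma's voom on the recovered reads called 0 of the 33, with 10 at an unadjusted p under 0.05 (998 of the 12132 genes tested there). For 8 of the 33 genes (24.2%) all 3 shHMGB1 libraries lay above all 3 shCTRL libraries, against 7.12% of all genes, and for 0 they lay below, against 7.06%. Several other cell cycle lists, given below, had similar shares. For 1 gene in 3 libraries a group, the smallest p of a two-sided exact permutation test is 0.1. Any gene whose groups do not overlap reaches it, so for those 8 genes it adds nothing. In bulk RNA, more cells in G2 or mitosis in the shHMGB1 cultures and more of these RNAs per cell cannot be told apart. For Hmmr, which went the other way, no cause was tested.

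One library stood above the others. In shHMGB1 replicate B, 32 of the 33 genes (97%) had their highest value of the 6 libraries, against 11.2% of all genes, and Hmmr was the exception. Its RPKM over the mean of shHMGB1 replicates A and C had a median of 2.46 over the 33 genes, from 1.1 for Smc4 to 4.46 for Ube2c and Nuf2, and 0.97 over all genes. That ratio was above 2 for 23 of the 33 (69.7%) and for 0.931% of all genes. Among the controls, shCTRL replicate B was the highest for 28 of the 33 genes, against 35.4% of all genes, with a median ratio of 1.65 to the mean of shCTRL replicates A and C. shCTRL replicate B also had the largest share of ribosomal RNA reads, 20.9%, and shHMGB1 replicate B had 1.1%. Summed over the 33 genes, levels were 81.3, 154 and 79.8 RPKM in shHMGB1 cells, against 67.2, 88.6 and 64.6 RPKM in shCTRL cells. The groups overlap in this sum, since shCTRL replicate B lies above shHMGB1 replicates A and C.

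Without shHMGB1 replicate B the median log2 fold change was 0.39 and 29 of the 33 genes were positive, against 51.7% of all genes, with 5 at an unadjusted p under 0.05 and 0 past the threshold. With both libraries lettered B left out, an alternative added after the data were seen, the median was 0.64 and 29.0 of 33 were positive, against 51.3% of all genes. In 25 of the 33 genes shHMGB1 replicates A and C both lay above shCTRL replicates A and C, against 11.9% of all genes. Set against shCTRL replicate B, shHMGB1 replicate A was higher for 11 of the 33 and shHMGB1 replicate C for 16, against 50.3% and 49.4% of all genes.

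**Figure D2:**
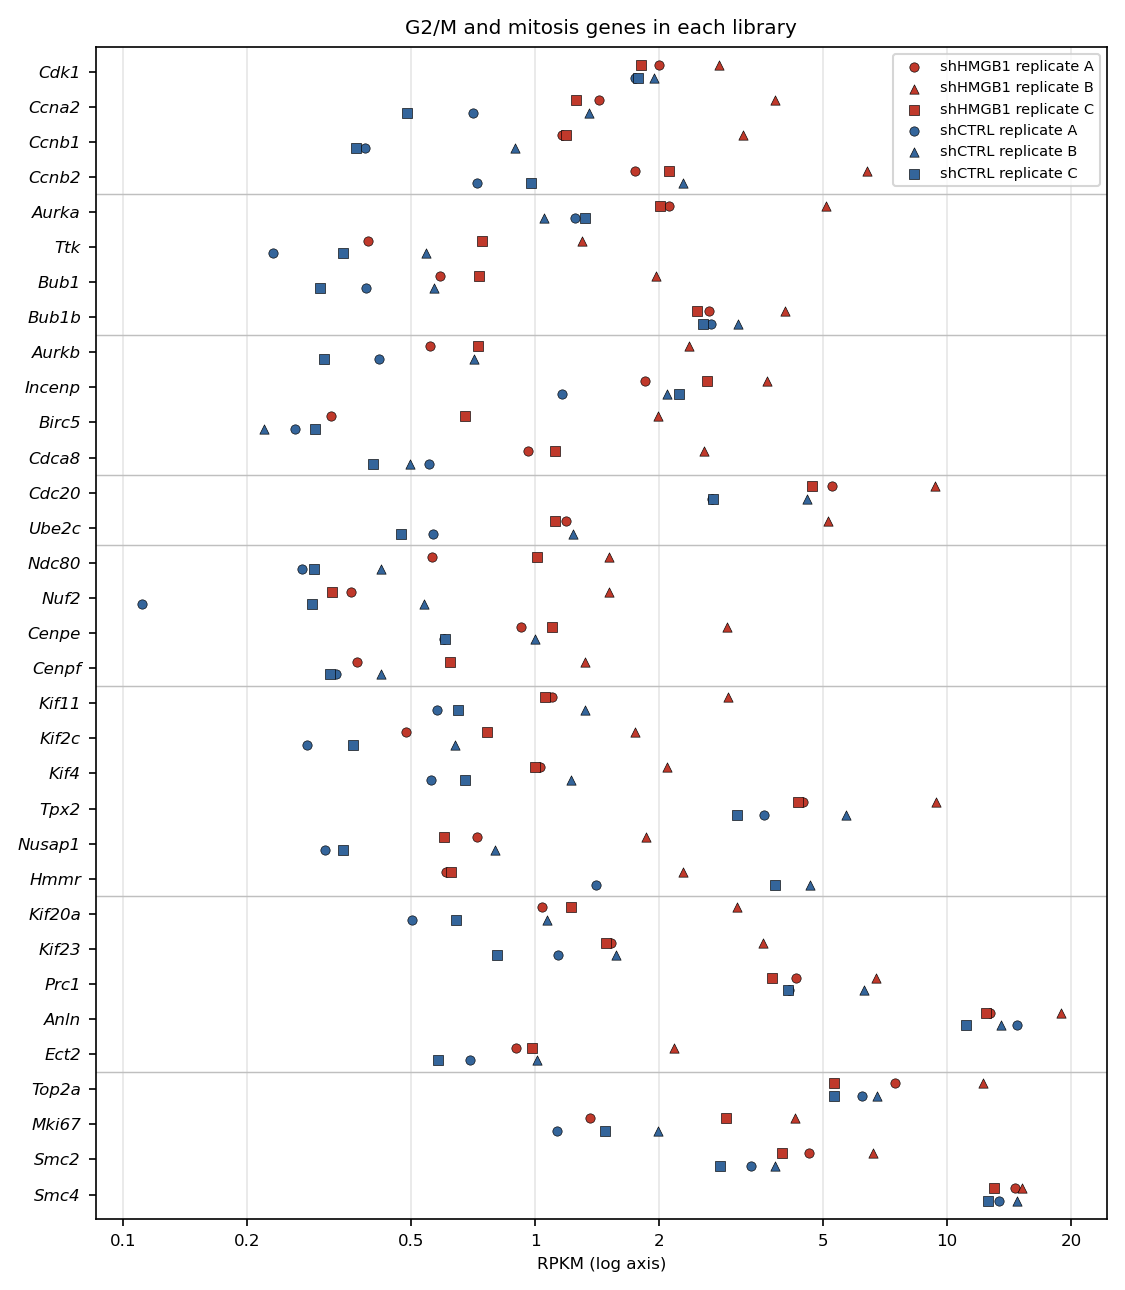
RPKM on a log axis of each of the 33 genes in every library, grouped by role from mitotic entry at the top to chromosome structure at the bottom, with shHMGB1 libraries in red above shCTRL libraries in blue and replicates A, B and C as circles, triangles and squares. The shHMGB1 replicate B triangle is the rightmost point in 32 of 33 rows.

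Among Cdk1 and the cyclin genes of the 33, Ccnb1 had the largest log2 fold change and Cdk1 the smallest. Ccnb1, the gene of cyclin B1 on chromosome 13 (100778650 to 100786570), had 1.16, 3.20 and 1.19 RPKM in shHMGB1 cells, against 0.387, 0.893 and 0.367 RPKM in shCTRL cells. All 3 shHMGB1 values lay above all 3 shCTRL values, and within each group replicate B was the highest. The log2 fold change, 1.52 ± 0.46 (SE; 95% interval 0.45 to 2.59; limma adjusted p = 0.466), was the largest positive one of the 33, and it was 1.07 without shHMGB1 replicate B. Ccnb2, the gene of cyclin B2, had 1.75, 6.39 and 2.11 RPKM in shHMGB1 cells, against 0.724, 2.29 and 0.98 RPKM in shCTRL cells, a log2 fold change of 1.21 ± 0.55 (SE). Here shCTRL replicate B exceeded shHMGB1 replicates A and C, so the groups overlap. Ccna2, the gene of cyclin A2, had a log2 fold change of 1.19 ± 0.48 (SE; unadjusted p = 0.0396 and adjusted p = 0.594 in limma). Cdk1, which encodes the kinase that all of these cyclins bind, had 2.00, 2.80 and 1.81 RPKM in shHMGB1 cells, against 1.75, 1.94 and 1.78 RPKM in shCTRL cells, a log2 fold change of 0.24 ± 0.23 (SE). Pseudogenes named after Ccnb1, Ccnb2 and Kif4 are annotated, 1 each, and could share reads with them.

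Of the mitotic kinases, Aurka separated the groups and Bub1b did not. Aurka, the gene of the centrosome and spindle kinase Aurora A on chromosome 2 (172356190 to 172370535), had 2.12, 5.09 and 2.01 RPKM in shHMGB1 cells, against 1.25, 1.05 and 1.32 RPKM in shCTRL cells. It was 1 of 2 non-overlapping genes in which shCTRL replicate B was the lowest library, the other being Birc5, and its log2 fold change was 1.16 ± 0.36 (SE; limma adjusted p = 0.491). Bub1, a checkpoint kinase gene on chromosome 2 (127801122 to 127831865), had 0.588, 1.97 and 0.730 RPKM in shHMGB1 cells, against 0.388, 0.569 and 0.301 RPKM in shCTRL cells. The groups do not overlap, but shHMGB1 replicate A and shCTRL replicate B lie close together. Bub1b, which encodes the checkpoint protein BUBR1, had 2.65, 4.05 and 2.47 RPKM in shHMGB1 cells, against 2.67, 3.11 and 2.55 RPKM in shCTRL cells, and its log2 fold change of 0.11 ± 0.24 (SE) turned to -0.11 without shHMGB1 replicate B. Ttk, the gene of the checkpoint kinase MPS1, had a log2 fold change of 0.88 ± 0.43 (SE).

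The chromosomal passenger complex joins the kinase Aurora B (Aurkb) to INCENP, survivin (Birc5) and borealin (Cdca8) at centromeres and later the central spindle. Cdca8, on chromosome 4 (124918465 to 124939311), had 0.963, 2.57 and 1.12 RPKM in shHMGB1 cells, against 0.553, 0.498 and 0.404 RPKM in shCTRL cells. Every shHMGB1 value lay above the shCTRL values, on 35, 106 and 31 reads against 14, 10 and 19 reads. The log2 fold change of 1.38 ± 0.37 (SE; 95% interval 0.52 to 2.23) had the smallest p of the 33 (unadjusted p = 0.00609 and adjusted p = 0.415 in limma). It was 0.97 without shHMGB1 replicate B. Birc5, on chromosome 11 (117849251 to 117855743), had 0.32, 1.99 and 0.675 RPKM in shHMGB1 cells, against 0.262, 0.220 and 0.292 RPKM in shCTRL cells, a log2 fold change of 1.30 ± 0.53 (SE). The groups do not overlap, although shHMGB1 replicate A, with 21 reads, lies next to the shCTRL libraries. Aurkb and Incenp, whose groups overlap, had log2 fold changes of 0.99 ± 0.52 and 0.54 ± 0.33 (SE). Incenp, the most abundant of the 4, had 1.85, 3.66 and 2.61 RPKM in shHMGB1 cells, against 1.16, 2.09 and 2.24 RPKM in shCTRL cells.

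Both partners of the anaphase-promoting complex were higher in the means of shHMGB1 cells. Cdc20, the activator that the spindle checkpoint holds back, lies on chromosome 4 (118432901 to 118437352) and had 5.26, 9.37 and 4.69 RPKM in shHMGB1 cells, against 2.69, 4.57 and 2.71 RPKM in shCTRL cells. The groups do not overlap, with shHMGB1 replicate C just above shCTRL replicate B, and the log2 fold change was 0.91 ± 0.32 (SE; limma adjusted p = 0.532). Ube2c had 1.19, 5.14 and 1.12 RPKM in shHMGB1 cells, against 0.567, 1.24 and 0.472 RPKM in shCTRL cells. Its log2 fold change of 1.33 ± 0.60 (SE) was 0.64 without shHMGB1 replicate B, and shCTRL replicate B exceeded shHMGB1 replicates A and C. Of the 2600 exonic bases of Ube2c, 592 overlap Tnnc2 on the other strand, and no source here says whether strand was used in counting, so reads of the pair cannot be told apart. Opposite-strand exons also overlap Kif20a (1271 bases, Cdc23), Prc1 (911, Rccd1), Kif4 (832, Pdzd11), Ccna2 (510, Exosc9), Cdca8 (232), Nusap1 (172, Oip5) and Cdc20 (53, Elovl1).

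At the kinetochore, NDC80 and NUF2 form the part of the NDC80 complex that grips microtubules, CENPE is a motor that brings chromosomes to the spindle equator, and CENPF is a large coiled-coil protein of the outer plate. Ndc80, on chromosome 17 (71496100 to 71526857), had 0.564, 1.51 and 1.01 RPKM in shHMGB1 cells, against 0.272, 0.424 and 0.291 RPKM in shCTRL cells. The groups do not overlap, and the log2 fold change of 1.32 ± 0.36 (SE; limma adjusted p = 0.424) was 1.02 without shHMGB1 replicate B. Its partner Nuf2 had 0.357, 1.51 and 0.321 RPKM in shHMGB1 cells, against 0.111, 0.538 and 0.288 RPKM in shCTRL cells, and its log2 fold change of 0.86 ± 0.60 (SE) was 0.23 without shHMGB1 replicate B. Cenpe had 0.927, 2.92 and 1.1 RPKM in shHMGB1 cells, against 0.602, 1.00 and 0.605 RPKM in shCTRL cells. Its groups overlap through shCTRL replicate B alone, and Cenpf had a log2 fold change of 0.79 ± 0.41 (SE).

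Among spindle motors and microtubule proteins, 5 of 6 genes had positive differences and 1 had the opposite sign. Tpx2, which activates Aurora A and nucleates spindle microtubules, had 4.46, 9.38 and 4.34 RPKM in shHMGB1 cells, against 3.60, 5.69 and 3.10 RPKM in shCTRL cells, a log2 fold change of 0.50 ± 0.35 (SE). Kif11, the motor that separates the spindle poles, Kif2c, a microtubule depolymerase, the chromokinesin gene Kif4 and the microtubule bundler gene Nusap1 had log2 fold changes of 0.67 to 0.95, and 0.34 to 0.49 without shHMGB1 replicate B. None of these 6 genes separated the groups. Hmmr encodes RHAMM, a spindle assembly factor that also acts as a hyaluronan receptor, and lies on chromosome 11 (40701395 to 40733422). It had 0.609, 2.29 and 0.625 RPKM in shHMGB1 cells, against 1.41, 4.66 and 3.82 RPKM in shCTRL cells. shHMGB1 replicates A and C lay below all 3 shCTRL libraries, while shHMGB1 replicate B lay between shCTRL replicates A and C. Its log2 fold change over all 6 libraries was -1.51 ± 0.58 (SE; 95% interval -2.86 to -0.15; unadjusted p = 0.0334 and adjusted p = 0.576 in limma), and -2.09 without shHMGB1 replicate B. Within each group Hmmr kept the pattern of the other genes, with replicate B the highest and a ratio of 3.72 to the mean of replicates A and C in shHMGB1 cells and 1.78 in shCTRL cells.

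Among the central spindle and cytokinesis genes, Kif20a, Kif23 and Ect2 had larger positive differences than Anln and Prc1, which had higher levels. Kif20a and Kif23, the motors MKLP2 and MKLP1, and Ect2, the RhoA exchange factor they help to place, had log2 fold changes of 1.07 ± 0.44, 0.77 ± 0.39 and 0.68 ± 0.37 (SE). Anln, which encodes the furrow scaffold anillin, had 12.7, 18.9 and 12.4 RPKM in shHMGB1 cells, against 14.8, 13.5 and 11.1 RPKM in shCTRL cells. Apart from shHMGB1 replicate B its values are interleaved, and the log2 fold change of 0.14 ± 0.21 (SE) was -0.06 without that library. Prc1, which bundles the antiparallel microtubules of the central spindle, had 4.29, 6.74 and 3.75 RPKM in shHMGB1 cells, against 4.14, 6.27 and 4.10 RPKM in shCTRL cells. Both replicate B libraries were about equally high, and the groups differed by 0.01 ± 0.28 on the log2 scale (SE; 95% interval -0.63 to 0.65), with -0.24 without shHMGB1 replicate B.

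Of the chromosome structure genes, the condensin subunit Smc2 separated the groups and its partner Smc4 did not. Smc2, on chromosome 4 (52439243 to 52488260), had 4.61, 6.61 and 3.97 RPKM in shHMGB1 cells, against 3.34, 3.83 and 2.81 RPKM in shCTRL cells, a log2 fold change of 0.57 ± 0.24 (SE; limma adjusted p = 0.607). Smc4 had 14.6, 15.2 and 13.0 RPKM in shHMGB1 cells, against 13.4, 14.8 and 12.6 RPKM in shCTRL cells. Its 6 values were the most even of the set, with a log2 fold change of 0.07 ± 0.15 (SE; 95% interval -0.28 to 0.41). Top2a, the topoisomerase that untangles sister chromatids, had 7.46, 12.2 and 5.31 RPKM in shHMGB1 cells, against 6.20, 6.75 and 5.32 RPKM in shCTRL cells, a log2 fold change of 0.37 ± 0.29 (SE), with 0.06 without shHMGB1 replicate B. Mki67, the proliferation marker Ki-67 that coats mitotic chromosomes, had 1.36, 4.27 and 2.90 RPKM in shHMGB1 cells, against 1.13, 1.99 and 1.48 RPKM in shCTRL cells, a log2 fold change of 0.75 ± 0.41 (SE).

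**Figure D3:**
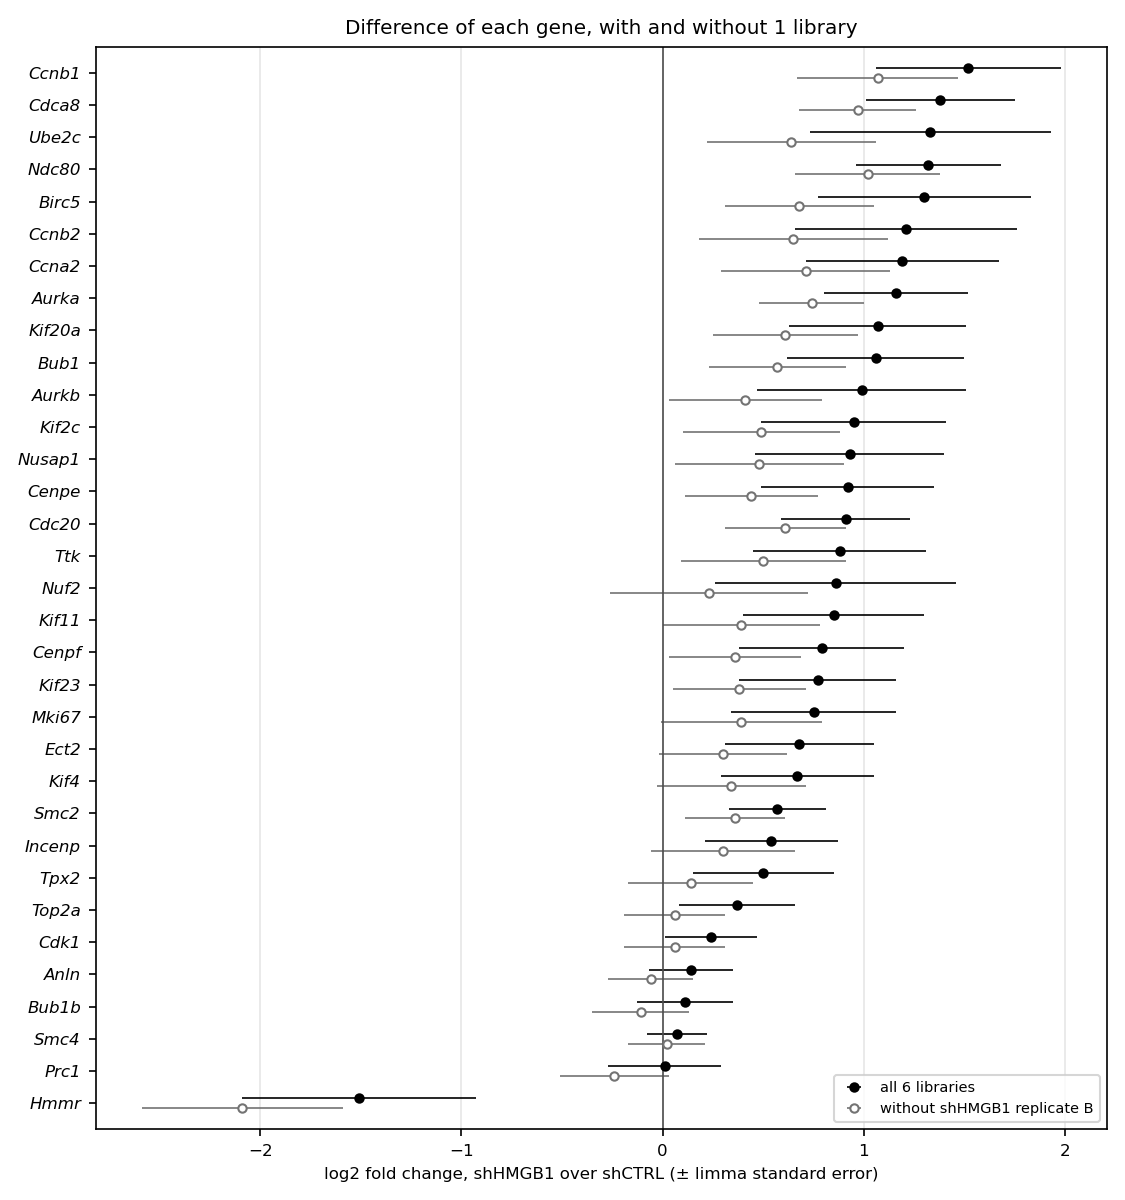
Log2 fold change of shHMGB1 over shCTRL with limma's standard error for each of the 33 genes, from all 6 libraries (filled circles) and without shHMGB1 replicate B (open circles). Without that library 29 of 33 genes are positive, with a median of 0.39, and Hmmr stands at -2.09.

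By level, the 19 genes with a mean under 2 RPKM had a median log2 fold change of 0.95, the 10 genes from 2 to 5 RPKM had 0.55, and the 4 genes of at least 5 RPKM (Tpx2, Top2a, Anln and Smc4) had 0.25. Over all genes the median size of the log2 fold change, regardless of sign, was 0.29, 0.24 and 0.18 in the same classes, so differences of low genes were larger in general. The added 0.1 RPKM understates the change of the lowest genes.

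**Figure D4:**
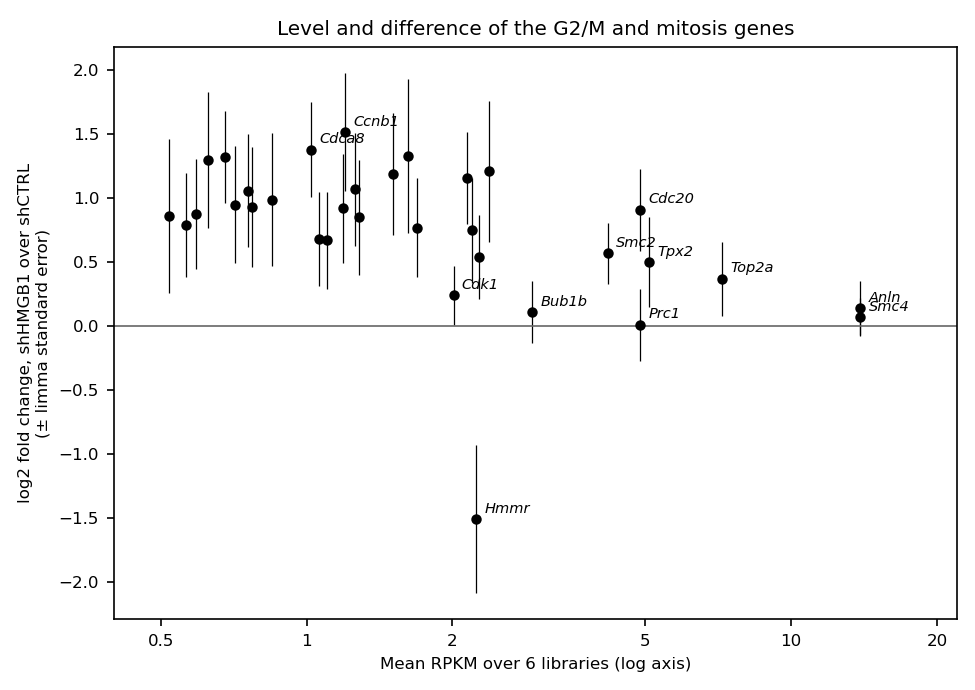
Log2 fold change of shHMGB1 over shCTRL (vertical axis, ± limma's standard error) against the mean RPKM over 6 libraries (log axis) for the 33 genes, with some named. The 4 genes of at least 5 RPKM lie between 0 and 0.5, and Hmmr lies alone below 0.

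Other genes of the pathway were read from lists chosen by function. Of 30 listed genes for other spindle and cytokinesis proteins, 27 had positive differences, with a median log2 fold change of 0.70, or 0.39 without shHMGB1 replicate B, and 23 (76.7%) were highest in shHMGB1 replicate B. Of 33 other kinetochore and checkpoint genes, 23 were positive with a median of 0.17, and 17 (51.5%) were highest in that library. Of 38 genes for G1/S and DNA replication, 33 were positive with a median of 0.43, or 0.29 without shHMGB1 replicate B, and 25 (65.8%) were highest in that library. Of 13 genes of the entry switch around CDK1, 10 were positive with a median of 0.25. None of the 171 listed genes in the 8 other lists passed the test. The 16 core subunits of the anaphase-promoting complex had a median of -0.06 with 7 positive and 1 highest in shHMGB1 replicate B. The 15 condensin and cohesin genes had a median of 0.18, the 13 FOXM1 and MuvB regulators 0.11, and the 13 G1 and arrest genes 0.25. Highest in shHMGB1 replicate B were 4 of the condensin and cohesin genes (26.7%), 5 of the FOXM1 and MuvB regulators (38.5%) and 7 of the entry switch genes (53.8%), against 11.2% of all genes. Of those G1 and arrest genes, 1 (Ccnd1) was highest in shHMGB1 replicate B. All 3 shHMGB1 libraries lay above all 3 shCTRL libraries for 26.7% of the other spindle genes and 27.3% of the other kinetochore genes. The share was 26.3% for G1/S and 23.1% for the entry switch, near the 24.2% of the 33 mitotic genes. They lay below for 1 other spindle gene, 2 other kinetochore genes and 0 in these last 2 lists. At an unadjusted p under 0.05 in limma, 34.2% of the G1/S genes were higher. Differences between lists were not tested.

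Single genes of these lists showed both directions. Mybl2, the B-MYB partner of MuvB, had 0.326, 1.18 and 0.905 RPKM in shHMGB1 cells, against 0.284, 0.18 and 0.111 RPKM in shCTRL cells, a log2 fold change of 1.53 ± 0.45 (SE; limma adjusted p = 0.457). Its groups do not overlap, and neither do those of Ccnf, a ubiquitin ligase subunit (4.73 ± 1.40 RPKM in shHMGB1 cells and 2.51 ± 0.441 in shCTRL cells, SD, n = 3 each). Cenpa, the centromeric histone gene, and Cdc6, a replication licensing gene, also separated the groups, with log2 fold changes of 1.49 ± 0.50 and 1.44 ± 0.32 (SE). Arhgap11a, a RhoA-directed GTPase-activating protein gene, went with Hmmr in sign. It had 0.310, 1.04 and 0.670 RPKM in shHMGB1 cells, against 1.36, 1.42 and 4.19 RPKM in shCTRL cells, a log2 fold change of -1.57 ± 0.52 (SE; limma adjusted p = 0.507), and all 3 shHMGB1 values lay below all 3 shCTRL values. The 2 most abundant genes of each list had smaller log2 fold changes, with 0.11 for Rbbp4 and Tfdp1, -0.26 for Ensa, -0.03 for Arpp19, -0.19 for Bub3, 0.07 for Ckap5 and 0.10 for Numa1. They were -0.45 for Smc1a, -0.18 for Smc3, -0.17 for Anapc5, -0.13 for Cdc16 and Cdk4, -0.05 for Pcna, -0.29 for Dut and 0.30 for Ccnd1. Hjurp, the Cenpa chaperone gene, was lower in all 3 shHMGB1 libraries than in any shCTRL library by a small margin (14.2 ± 0.277 RPKM in shHMGB1 cells and 16.0 ± 0.852 RPKM in shCTRL cells, SD, n = 3 each). The largest differences of the remaining lists were 0.59 ± 0.50 for Ncapd2, 0.47 ± 0.61 for Anapc2 and 0.71 ± 0.53 for Ccnd2 (log2, SE), all with overlapping groups.

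**Figure D5:**
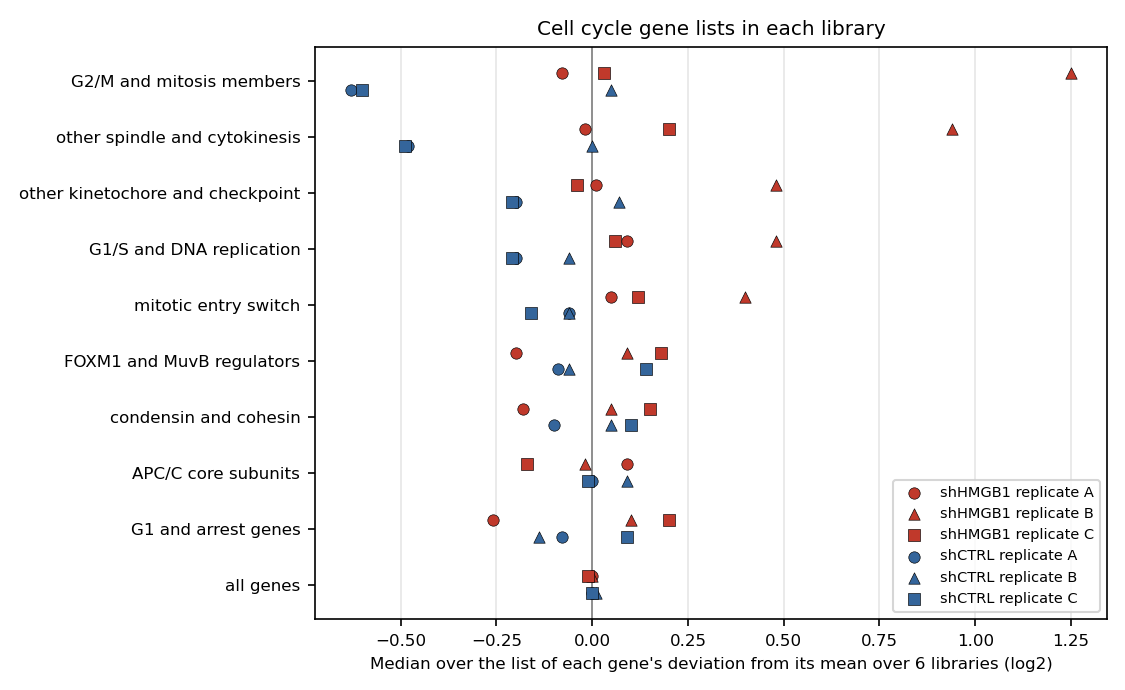
Median over each list of the log2 deviation of its genes from their own mean over 6 libraries, with shHMGB1 libraries in red above shCTRL libraries in blue and replicates A, B and C as circles, triangles and squares. shHMGB1 replicate B stands at 1.25 for the 33 genes, beside -0.08 and 0.03 in the other shHMGB1 libraries, against -0.63, 0.05 and -0.60 in the shCTRL libraries.

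Promoter letters were set beside the differences. The 21 mitotic genes with a CHR match from 100 bases before the start onward had a median log2 fold change of 0.77, and the 6 with a window and no such match (Ccnb1, Birc5, Nuf2, Cenpe, Nusap1 and Kif2c) had 0.94. The 566 other genes of the table with such a match had a median of -0.02, with 47% positive and 14.8% highest in shHMGB1 replicate B, against 52.1% and 11.3% of the 8820 other genes that have a window. These counts were not tested.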

How the data were processed

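Total RNA of 6 cultures was depleted of ribosomal RNA and sequenced as TruSeq libraries, per the labels' protocols. The submitters' processing notes name Trimmomatic 0.32, STAR 2.5.3a, featureCounts, edgeR, and mm10 or GRCm38 as the build. No source used here gives the authors' gene model, strand setting or filter. The deposited table holds log2 RPKM by the authors for 12134 genes, and each of its 6 columns carries a sample's name.

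Values were raised as powers of 2. Read counts were recovered from their steps, with library sizes found on 1610 genes that have 1 transcript in GENCODE M21 (90.2% of their values whole within 0.05 reads after a prior of 0.25 reads). For 12132 genes some length from 40 to 60000 bases gave whole reads in 6 of 6 libraries (tolerance 0.02 reads). With deliberately wrong sizes this held for 0 of 500 genes. Limma 3.58.1 in R 4.3.3 was fitted to log2(RPKM + 0.1) of all 12134 genes with group as the only term, eBayes with trend and robust, two-sided, with Benjamini-Hochberg adjustment at 0.05. The fit was also run on simulated reads with the same spread for every gene and library. These do not imitate a library that stands apart, so they do not show how the fit performs here. No filter on level was added to the authors' gene list, since one on the mean could keep low genes through the libraries where they are high. The authors' own filter, which is not known, may already have done so. No 2 columns shared values for more than 2 genes.

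Locations are from GENCODE M21 (GRCm38) and promoters from RefSeq (GRCm38.p6). The genes and lists were chosen with earlier results of these data known. The rule for names takes Hmgb1, all mitotic genes with their role, with values per library for those past the threshold or not overlapping, the 2 most abundant per role and the 3 with the largest differences in each direction, and from each other list the genes past the threshold or else the 2 most abundant and the 1 with the largest difference. Hmmr alone was negative in the fit over all libraries, so the genes with the smallest positive differences there (Prc1 and Smc4) filled up the negative side. Values of Nuf2 and Mki67 in each library were chosen after they were seen. Alternatives were other pseudocounts, filters and scalings, eBayes without trend, weights for array quality, a block for the replicate letter, voom, and leaving out libraries.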

Additional observations from a re-analysis of the deposited data

How the results depend on the processing

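Across 19 alternatives the median log2 fold change of the 33 mitotic genes, 0.86 in the fit over 6 libraries, stayed positive. It was 0.25 among genes of at least 5 RPKM, where 4 of the 33 are tested and all 4 are positive, and 1.60 with array quality weights. Leaving out each library in turn gave 0.39 to 1.14, with 29 to 32 of 33 positive. The number of genes past the threshold over all genes, 3, was 0 with a mean of at least 5 RPKM, 5 with equal sums, 5 with voom, 0 with both libraries lettered B left out, and 0 to 8 when 1 library was left out: 0 without shHMGB1 replicate B, shCTRL replicate B or shCTRL replicate C, and 8 without shHMGB1 replicate A. Array quality weights called 958 genes (7.9%), 27 of the 33 mitotic genes among them, and in every other alternative 0 of the 33 were called. Those weights were 7.35 for shHMGB1 replicate B and 0.378 to 1.44 for the other 5 libraries, and their estimation stopped before convergence. The highest weight is that of the library in which 32 of the 33 are highest. After rescaling to equal sums, the median over all genes was 0.36 (0.02 before) and that of the 33 genes 1.18. The groups then separated for 21 of the 33 instead of 8. Since this scaling raised genes in general and no such count was made over all genes, the rise is not a result about the mitotic genes.

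Medians of other lists moved by more than the spread between replicates in these alternatives. With equal sums they were 0.46 for FOXM1 and MuvB regulators, 0.60 for the entry switch, 0.48 for other kinetochore genes, 0.52 for condensin and cohesin, 0.29 for the anaphase-promoting complex, 0.75 for G1/S and 0.60 for G1 and arrest genes, all beside the 0.36 of all genes. Among genes of at least 5 RPKM they were 0.01 for the entry switch, 0.09 for other spindle genes, -0.05 for condensin and cohesin and 0.11 for G1/S. With array quality weights they were 0.53 for the entry switch, 1.20 for other spindle genes and 0.64 for G1/S. With both libraries lettered B left out, the entry switch had 0.09. Leaving out 1 library gave 0.11 to 0.46 for the entry switch, -0.07 to 0.34 for condensin and cohesin and -0.19 to -0.00 for the anaphase-promoting complex.

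The call of Hmgb1 was also lost at a mean of at least 5 RPKM (adjusted p = 0.0546) and with both libraries lettered B left out (adjusted p = 1). Single genes changed sign as follows. Prc1 was -0.06 after quantile normalization, -0.24 to 0.21 when 1 library was left out and -0.04 without both libraries lettered B. Bub1b and Anln were -0.11 and -0.06 without shHMGB1 replicate B, within ranges of -0.11 to 0.24 and -0.06 to 0.24 over the libraries left out, and both were -0.03 without both libraries lettered B. The cause was not tested. Deviations of same-lettered libraries correlated over genes with r = 0.139, -0.084 and 0.455 for A, B and C. The libraries lettered C correlated best with each other, but shHMGB1 replicate A correlated best with shCTRL replicate B (r = 0.53). Among the 33 genes, shHMGB1 replicate B was the highest of 6 libraries for 32. For 28 of them, shCTRL replicate B was the highest of its group. Whether the replicate letters pair the samples was not tested. With the replicate block 7 genes passed, 0 of them mitotic, 27 of the 33 had an unadjusted p under 0.05 (1318 of all genes did), and the median of the 33 was 0.86. Depth limits the lowest genes, with as few as 4 reads in a library.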
